A study of Mus musculus with 8 samples.

Results

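The 10 genes described here encode proteins of stromal cells and of the extracellular matrix: Col1a1, Col1a2, Col3a1, Col5a1, Sparc, Postn, Lox, Cxcl12, Thbs1 and Fn1. They were found by name in the array annotation and are 10 of the 31791 genes named on the array. They were measured by 13 of 39429 probes. The brightest probe of each gene gives the main values, and Sparc, Lox and Cxcl12 have 1 further probe each. All 10 genes passed the filter on dim probes, and each main probe was well above background in both channels on all 8 arrays.

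The arrays held cytoplasmic RNA of mouse cells labelled as bone marrow derived macrophages, on a C57BL/6 x B6:129 Ola background. The sample titles name bone marrow macrophages for day 0 too, when RNA was taken before CSF-1. Cell type markers of both days are given below. The 4 groups were ERT2 Cre Thoc5 (flox/flox) cells with tamoxifen, the same flox cells without it, ERT2 Cre control cells with tamoxifen, and control cells without it. All groups, controls included, carry ERT2 Cre, a Cre recombinase that tamoxifen activates. In flox cells Cre can delete Thoc5, a subunit of the THO complex that takes part in mRNA export. Each of 2 biological experiments gave 1 array per group. On every array, RNA taken after 3 days with CSF-1, the growth factor of macrophages, was hybridised against RNA that the same experiment had yielded from that genotype at day 0. The labels do not say how many animals stand behind an experiment. With and without tamoxifen, the arrays of 1 genotype in 1 experiment share their day 0 RNA, which counts as 1 extract. Experiment 2 used the opposite dyes, so experiment and dye direction cannot be told apart.

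Type I collagen, built from the chains of Col1a1 and Col1a2, is the main fibrous protein of bone and connective tissue. Col3a1 and Col5a1 encode chains of collagens that join it in the same fibrils. Lox crosslinks collagen and elastin, and Sparc, Postn (periostin), Thbs1 (thrombospondin 1) and Fn1 (fibronectin) are secreted proteins that bind matrix or cells. Cxcl12 is a chemokine that holds blood stem cells in the marrow through its receptor Cxcr4. Fibrillar collagens, Postn and Cxcl12 are known from fibroblasts, bone-forming cells and reticular stromal cells of the marrow, whereas Thbs1, Fn1 and Lox are also made by other cells, platelets, megakaryocytes and macrophages among them.

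Thoc5 was checked first. On the log2 scale, its day 3 level was 9.56 and 9.54 in flox cells with tamoxifen, 11.86 and 11.67 in flox cells without it, 12.35 and 12.48 in tamoxifen-treated control cells and 12.21 and 12.43 in untreated ones. Thus Thoc5 was lowest on both arrays labelled flox with tamoxifen. The flox minus control difference of Thoc5 at day 3 was -2.86 ± 0.12 (SE) with tamoxifen (adjusted p = 0.000279 in limma) and -0.55 ± 0.12 without it (adjusted p = 0.0407), so flox cells without tamoxifen were lower too. Its ratio of day 3 over day 0 differed with tamoxifen by -2.27 ± 0.10 in flox cells (adjusted p = 0.000714) and by 0.16 ± 0.10 in control cells, where it did not pass. In each channel 51.2% to 57.9% of the probes passed the scanner's test for signal above background, and saturation was seen at 0 spots. Across 17919 genes the log2 ratios of the 2 arrays of a group correlated at 0.917 in flox cells with tamoxifen, 0.928 in flox cells without it, 0.881 in control cells with tamoxifen and 0.785 in control cells without it.

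One library stood apart for the genes described here. The array of flox cells with tamoxifen in experiment 2 had higher log2 ratios for 9 of the 10 genes than each of the other 7 arrays, Thbs1 being the exception. The main results that rest on it are therefore given with and without it.

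RefSeq promoter sequence (build GRCm38.p6) was used for 6 of the 10 genes, Lox not among them. The stretches of 130 bases that end just before the annotated start of Col1a2, Col5a1, Sparc and Postn are shown because these genes were all higher in flox than in control cells at day 3 with tamoxifen. Capitals mark matches on either strand to any of 4 motifs: the CCAAT box, the sequence of a classical TATA box (TATAAA), the core of a GC box that binds Sp1 (GGGCGG) and the Smad-binding element (CAGAC). The stretches lie at chr6:4505488-4505617 (Col1a2), chr2:27886295-27886424 (Col5a1) and chr3:54360977-54361106 (Postn) on the plus strand and at chr11:55420081-55420210 (Sparc) on the minus strand. The Postn stretch precedes the second of the 2 starts in the table.
Col1a2: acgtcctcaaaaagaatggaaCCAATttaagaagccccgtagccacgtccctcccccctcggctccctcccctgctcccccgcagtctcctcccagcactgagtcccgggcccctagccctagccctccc
Col5a1: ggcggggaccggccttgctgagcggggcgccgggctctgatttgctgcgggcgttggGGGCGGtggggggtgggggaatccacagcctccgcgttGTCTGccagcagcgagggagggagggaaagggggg
Sparc: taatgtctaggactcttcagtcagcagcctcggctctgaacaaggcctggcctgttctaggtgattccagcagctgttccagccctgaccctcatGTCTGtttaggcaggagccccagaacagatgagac
Postn: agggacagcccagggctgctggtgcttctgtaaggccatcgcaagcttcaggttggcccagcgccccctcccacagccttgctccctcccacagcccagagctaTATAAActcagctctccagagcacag

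The motifs differed from gene to gene. Col1a2 held CCAAT at -109 to -105, counted back from the start, a motif found in 22.4% of 32851 RefSeq promoter stretches of the same length. Postn held TATAAA at -26 to -21, a motif found in 6.83% of stretches, and Col3a1 held it at -117 to -112. Col5a1 held GGGCGG at -73 to -68, and Cxcl12 had 4 matches to it, 1 of which shares a base with the next, against 27.3% of stretches with at least 1. CAGAC, present in 24.3% of stretches, was on the minus strand at -35 to -31 in both Col5a1 and Sparc. No motif was shared by all 4 printed stretches, and a match shows only that these letters are there.

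The first question was how the genes changed over 3 days of CSF-1. Markers of cell types changed too. The summed linear intensity of 12 neutrophil markers was 491950 to 863470 at day 0 and 46284 to 82391 at day 3. For 12 megakaryocyte and platelet markers it was 213810 to 314560 and 46589 to 85222. For 10 macrophage markers it was 665170 to 1033000 and 1146500 to 1205800. The part of these cells in the ratios was not tested. At day 3 relative to day 0, Col3a1 was lower in all 4 groups, Col5a1 and Thbs1 were lower in 3 of 4 groups each, and Lox was higher in all 4. In flox cells with tamoxifen 2 of the 10 genes were higher (Postn and Lox) and 2 lower (Col3a1 and Thbs1) at an adjusted p under 0.05 in limma, against 58.9% of all genes called in either direction, 25.5% higher and 33.4% lower. In flox cells without tamoxifen 2 were higher (Postn and Lox) and 3 lower (Col3a1, Col5a1 and Thbs1), against 57.2% of all genes, 23.9% higher and 33.3% lower. In control cells with tamoxifen 1 was higher (Lox) and 4 were lower (Col3a1, Col5a1, Sparc and Thbs1), against 57.6% of all genes, 23.9% higher and 33.7% lower. In control cells without tamoxifen 1 was higher (Lox) and 3 were lower (Col3a1, Col5a1 and Sparc), against 57.3% of all genes, 23.3% higher and 34% lower. In each group 4 or 5 of the 10 members were called in either direction, not far from the share of all genes. These counts depend on the spread between the 2 arrays of flox cells with tamoxifen, as described below.

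**Figure D1:**
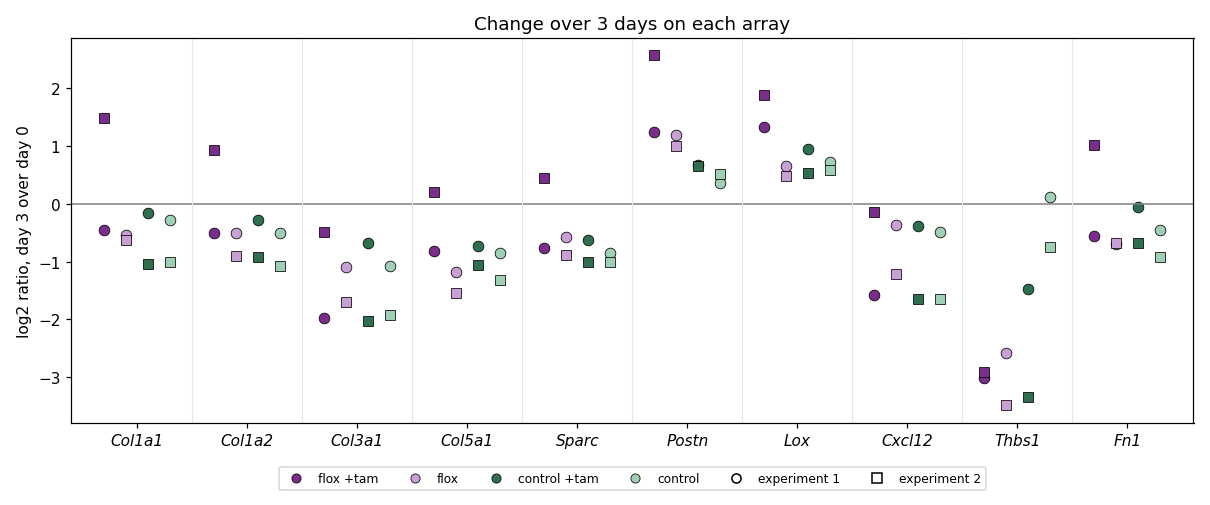
Log2 ratio of day 3 over day 0 (vertical axis) for each of the 10 genes (horizontal axis) on each of the 8 arrays, coloured by group, with circles for experiment 1 and squares for experiment 2. The square of flox cells with tamoxifen lies above all other points for every gene but Thbs1, at 1.49 for Col1a1 and 2.57 for Postn.

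Col1a1 (probe at chr11:94813115-94813174, mm9, plus strand) had day 3 over day 0 log2 ratios of -0.45 and 1.49 in flox cells with tamoxifen in experiments 1 and 2, -0.54 and -0.62 in flox cells without it, -0.15 and -1.04 in control cells with tamoxifen and -0.28 and -1.0 in control cells without it. Only the array of flox cells with tamoxifen in experiment 2 was above 0, and the other 7 were below. Its partner chain Col1a2 (chr6:4490619-4490678) had -0.51 and 0.93 in flox cells with tamoxifen, -0.51 and -0.90 in flox cells without it, -0.29 and -0.92 in control cells with tamoxifen and -0.50 and -1.08 in control cells without it. Neither gene passed the test in any of the 4 groups.

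Col3a1 (chr1:45405589-45405648) had log2 ratios of -1.98 and -0.49 in flox cells with tamoxifen, -1.09 and -1.69 in flox cells without it, -0.68 and -2.02 in control cells with tamoxifen and -1.07 and -1.92 in control cells without it. It was below 0 on all 8 arrays and fell in every group, with estimates between -1.5 and -1.24 on the log2 scale and adjusted p between 0.0238 and 0.045. Col5a1 (chr2:27892892-27892951) fell in the other 3 groups, with changes of -1.36 ± 0.25 (SE) in flox cells without tamoxifen (adjusted p = 0.00388), -0.89 ± 0.25 in control cells with tamoxifen (adjusted p = 0.0212) and -1.08 ± 0.25 in control cells without it (adjusted p = 0.00993). In flox cells with tamoxifen it had log2 ratios of -0.81 and 0.21, which lie on opposite sides of 0.

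Lox rose in each group. Its log2 ratios were 1.32 and 1.89 in flox cells with tamoxifen, 0.65 and 0.48 in flox cells without it, 0.94 and 0.54 in control cells with tamoxifen and 0.72 and 0.59 in control cells without it. The rise was 3.04-fold in flox cells with tamoxifen (adjusted p = 0.0003), 1.48-fold in flox cells without it (adjusted p = 0.0207), 1.67-fold in control cells with tamoxifen (adjusted p = 0.00713) and 1.57-fold in control cells without it (adjusted p = 0.012). These values are from the brighter probe, and the further probe of Lox had larger ratios. It had 2.06 and 2.45 in flox cells with tamoxifen and 1.72 and 1.39 in flox cells without it. In control cells it had 1.44 and 1.52 with tamoxifen and 0.85 and 1.58 without it. By each probe both arrays of flox cells with tamoxifen were above the other 6.

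Postn (chr3:54194840-54194899) had log2 ratios of 1.24 and 2.57 in flox cells with tamoxifen, 1.20 and 1.00 in flox cells without it, 0.67 and 0.65 in control cells with tamoxifen and 0.36 and 0.51 in control cells without it. It was above 0 on all 8 arrays and rose 3.75-fold in flox cells with tamoxifen (adjusted p = 0.000841) and 2.14-fold in flox cells without it (adjusted p = 0.00876). The other members with ratios mostly below 0 were Sparc, Fn1 and Cxcl12. Sparc (chr11:55208939-55208998) fell in control cells, with changes of -0.82 ± 0.26 with tamoxifen and -0.93 ± 0.26 without it. Fn1 (chr1:71632116-71632175) ranged between -0.92 and 1.02 and Cxcl12 (chr6:117131227-117131286) between -1.65 and -0.15 over the 8 arrays, and neither passed the test in any group.

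The spread of these genes between the 2 arrays of flox cells with tamoxifen enters the error of every group, since 1 fit gave all estimates. Without the array of flox cells with tamoxifen in experiment 2, the median log2 ratio of the 10 genes in that group was -0.84. Without the one of experiment 1, the median was 0.89. With both arrays the median was 0.03, against -0.05 over all genes.

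Addition of tamoxifen in flox cells was compared next. Lox alone of the 10 genes rose, by 1.04 ± 0.22 on the log2 scale or 2.05-fold by its brighter probe (adjusted p = 0.039 in limma). Of all genes 9.02% were called in either direction and 4.85% were called higher. The further probe of Lox had ratios of 2.06 and 2.45 with tamoxifen and 1.72 and 1.39 without it. Its gap was smaller than that of the brighter probe in each experiment, and it was not tested alone. For 5 genes (Col1a1, Col5a1, Postn, Lox and Fn1) both arrays with tamoxifen lay above both arrays without it, against 25.5% of all genes. The sign was positive for 9 of 10 genes, and the median difference was 0.86 against -0.01 over all genes. That median was 0.02 in experiment 1 and 1.49 in experiment 2. The 2 experiments had opposite signs for 5 of the 10 genes.

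The separate experiments show what lies behind these medians. Col1a1 differed by 0.09 in experiment 1 and 2.11 in experiment 2 (1.10 ± 0.63, adjusted p = 0.349). Fn1 differed by 0.14 and 1.71 (0.93 ± 0.49, adjusted p = 0.313), and Postn by 0.05 and 1.57 (0.81 ± 0.34, adjusted p = 0.212). Col3a1 and Cxcl12 turned sign, with -0.89 and 1.20 for Col3a1 and -1.21 and 1.07 for Cxcl12. Col5a1 had 0.38 and 1.75 (1.06 ± 0.35, adjusted p = 0.12). Lox, with 0.67 and 1.40 by its brighter probe, was the gene whose experiments differed least relative to its size among the 9 genes with a positive sign.

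Which library was left out decided the median. Without flox cells with tamoxifen of experiment 1, it was 1.46. Without those of experiment 2, the median was -0.11, and Cxcl12 had a difference of -1.33. The Lox call was lost, with estimates between 0.64 and 1.13, when the array of flox cells with tamoxifen of experiment 2, either array of flox cells without tamoxifen or either array of control cells with tamoxifen was left out.

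In control cells, tamoxifen gave 0 called genes among the 10 and 0 over the whole array (0% of all genes), while 997 genes over the array and 1 of the 10 had an unadjusted p under 0.05. That gene was Thbs1 (chr2:117952585-117952644). Its log2 ratios were -1.48 and -3.34 in control cells with tamoxifen, against 0.13 and -0.75 in control cells without it, and did not overlap, as was so in this direction for 9.32% of all genes. The difference was -2.10 ± 0.40, a 4.28-fold lower ratio with tamoxifen (adjusted p = 0.444), and -1.61 and -2.59 in experiments 1 and 2. The other 9 genes differed by between 0.05 and 0.32 in control cells. The widest of their 95% intervals, that of Col1a1, ran from -1.47 to 1.57, which includes changes of 2-fold in both directions, and the narrowest, that of Lox, ran from -0.45 to 0.62, which does not.

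The difference between the tamoxifen effects of flox and control cells was tested directly. It called 0 of the 10 genes, against 1.14% of all genes, and 2 of them had an unadjusted p under 0.05: Thbs1, with 2.16 ± 0.56 (adjusted p = 0.135), and Lox, with 0.95 ± 0.31 (adjusted p = 0.218). So for Lox the call in flox cells and its absence in control cells were not shown to differ.

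Thbs1 did not follow the other genes. Its log2 level at day 3 was 10.95 and 11.18 in flox cells with tamoxifen, 11.34 and 10.72 in flox cells without it, 11.56 and 10.58 in control cells with tamoxifen and 13.17 and 13.20 in control cells without it. At day 0 it was 13.95 and 14.15 in flox cells and 13.04 and 13.94 in control cells. Thus control cells without tamoxifen stood apart at day 3, near their day 0 level, and the other 3 groups overlapped one another. Over 3 days Thbs1 fell in 3 groups, with changes of -2.97 ± 0.28 in flox cells with tamoxifen (adjusted p = 0.000267), -3.03 ± 0.28 in flox cells without it (adjusted p = 0.000281) and -2.41 ± 0.28 in control cells with tamoxifen (adjusted p = 0.000643). In control cells without tamoxifen the difference was -0.31 ± 0.28 (adjusted p = 0.371).

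Without tamoxifen, the 3-day change of Thbs1 was lower in flox than in control cells, with a difference of -2.72 ± 0.40 (adjusted p = 0.0376), with -2.71 and -2.73 in the 2 experiments. It was the 1 member of 10 called in that comparison, against 2.87% of all genes called in either direction and 1.43% called lower. The call was lost, at estimates between -2.73 and -2.71, when either array of flox cells without tamoxifen, of control cells with tamoxifen or of control cells without tamoxifen was left out. With tamoxifen, the change was called different between flox and control cells for 0 of the 10 genes, against 11.3% of all genes, and the smallest adjusted p were 0.0555 for Lox (0.86 ± 0.22) and 0.0661 for Postn (1.25 ± 0.34). Here the median difference was -0.26 in experiment 1 and 1.51 in experiment 2.

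**Figure D2:**
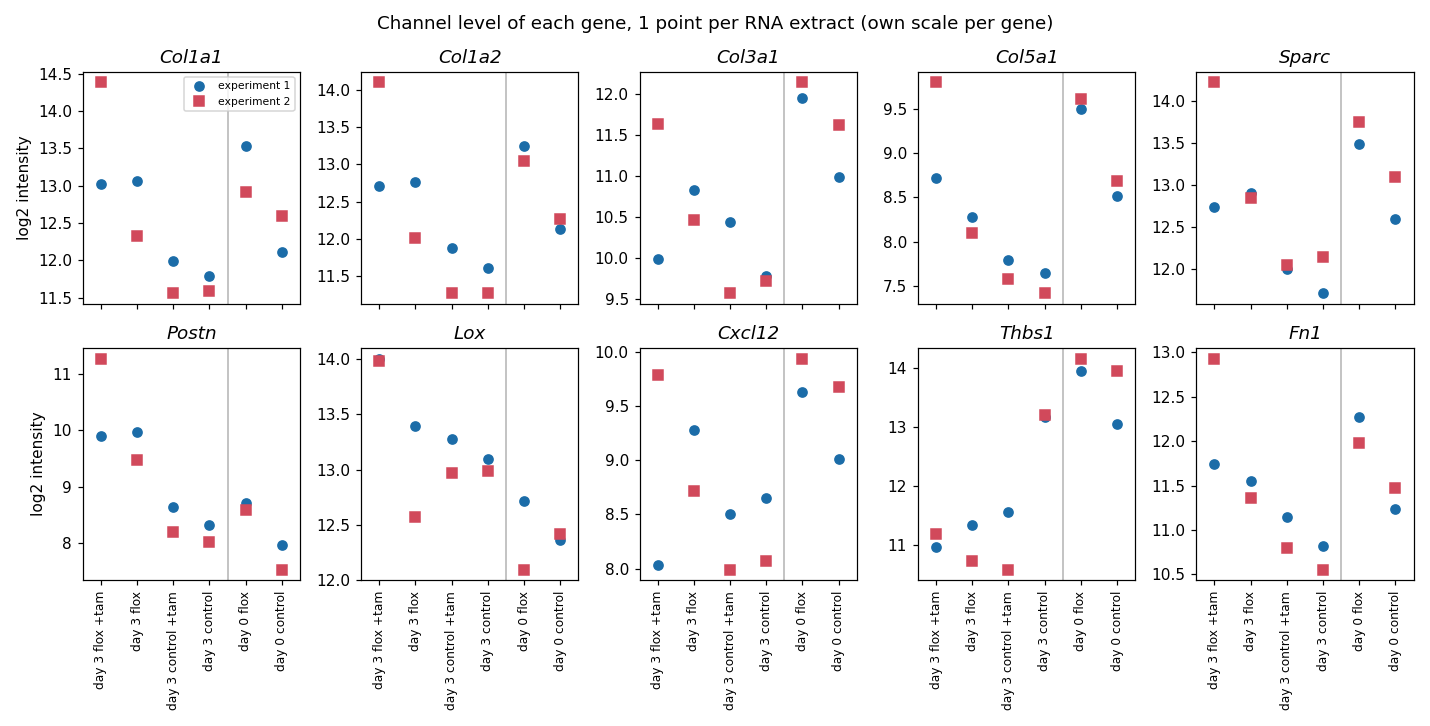
Log2 intensity (vertical axes, own scale per gene) of the 10 genes in each RNA extract, at day 3 in the 4 groups and at day 0 in the 2 genotypes, with circles for experiment 1 and squares for experiment 2. Flox cells lay above control cells at day 0 for 8 genes, and Thbs1 at day 3 was near 13.2 only in control cells without tamoxifen.

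The genotypes were then compared at day 0, before CSF-1 or tamoxifen, using the day 0 channel. All 10 genes had a higher mean in flox than in control extracts. For 8 of them (all but Lox and Cxcl12) both flox extracts were above both control extracts, against 11% of all genes. No member passed the adjusted threshold in limma, against 0.289% of all genes called, while 9 of the 10 had an unadjusted p under 0.05 and were higher, against 5.04% of all genes. The median difference was 0.77 on the log2 scale, 0.93 in experiment 1 and 0.51 in experiment 2, against -0.02 over all genes.

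Col5a1 had a day 0 level of 9.49 and 9.61 in flox extracts and 8.51 and 8.68 in control extracts, a difference of 0.96 ± 0.12 or 1.94-fold (adjusted p = 0.0676). Col1a2 had 13.25 and 13.04 in flox extracts and 12.14 and 12.27 in control extracts (0.94 ± 0.14, adjusted p = 0.0944). Postn had 8.71 and 8.59 in flox extracts and 7.97 and 7.53 in control extracts (0.90 ± 0.14, adjusted p = 0.101). These gaps were larger than those between the 2 extracts of a genotype. Col1a1 differed by 1.43 in experiment 1 and 0.33 in experiment 2 (0.88 ± 0.27, adjusted p = 0.374), and Lox by 0.36 and -0.32. The 2 arrays that carried the same day 0 extract differed by a median of 0.05 and at most 0.26 over 40 readings of the 10 genes.

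The probes of Sparc did not agree at day 0. The brighter one had 13.49 and 13.75 in flox extracts and 12.59 and 13.10 in control extracts. The dimmer one (chr11:55208003-55208061) had 10.88 and 10.96 in flox extracts and 10.85 and 11.27 in control extracts, which overlap. The further probes of Lox and Cxcl12 overlapped between genotypes at day 0, as their brighter probes did.

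The day 0 comparison had 1 residual degree of freedom. When 1 array was left out, between 0 and 4 members were called, against between 54 and 279 of all genes. The 4 were Col5a1, Col1a2, Sparc and Postn. Markers of other cells also differed at day 0. The summed linear intensity of 15 mesenchymal stromal markers that are not members was between 24827 and 29810 in flox and between 16006 and 18333 in control day 0 channels. That of 12 neutrophil markers was between 748560 and 863470 in flox and between 491950 and 586190 in control channels, and 2 of those markers passed the test, Prtn3 (1.89 ± 0.14, adjusted p = 0.018) and Camp (1.40 ± 0.12, adjusted p = 0.028). The sum of 12 megakaryocyte and platelet markers was between 284140 and 314560 in flox and between 213810 and 253500 in control channels, and that of 11 endothelial markers between 10087 and 13307 in flox and between 7806 and 8780 in control channels. The part of these cells in the differences of the matrix genes was not tested. In such bulk RNA, more cells of a type and more RNA per cell cannot be told apart.

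At day 3 with tamoxifen, 7 of the 10 genes were higher in flox than in control cells, against 17.5% of all genes called in either direction and 9.16% called higher. They were Col1a1, Col1a2, Col5a1, Sparc, Postn, Lox and Fn1, and for each of them both flox arrays were above both control arrays, against 27.3% of all genes. The median difference over the 10 genes was 1.41, but 0.73 in experiment 1 and 2.16 in experiment 2, against -0.01 over all genes. At day 0 the median flox minus control difference of these genes was 0.77.

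**Figure D3:**
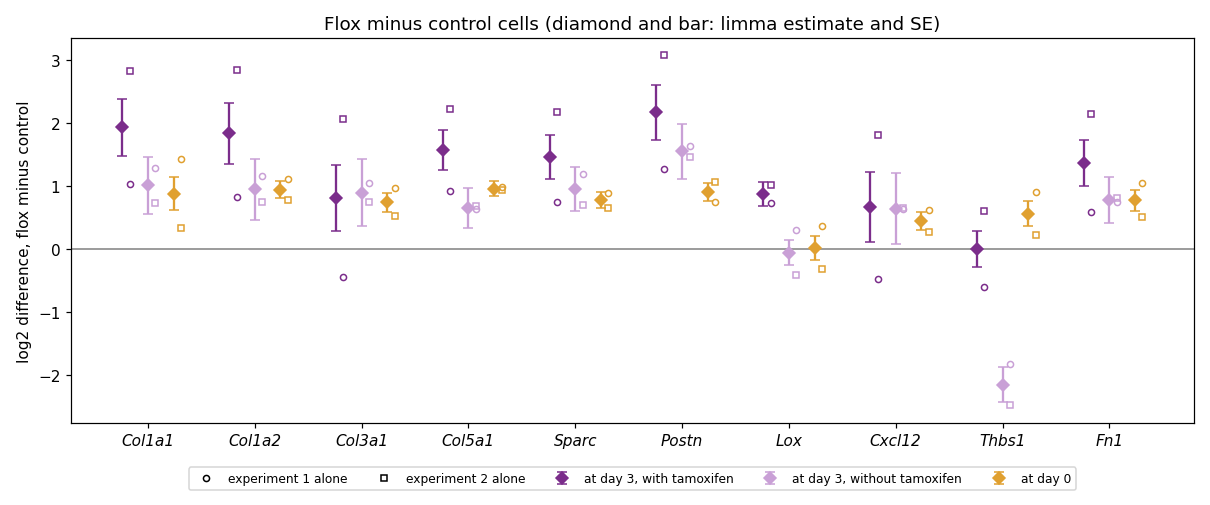
Log2 difference between flox and control cells (vertical axis) for the 10 genes (horizontal axis) at day 3 with tamoxifen, at day 3 without it and at day 0, as limma estimate with SE (diamonds and bars) and for experiment 1 (circles) and experiment 2 (squares) alone. With tamoxifen the squares lie above the circles for all 10 genes, and the diamonds reach 2.17 for Postn.

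Postn had a day 3 level of 9.90 and 11.27 in flox cells with tamoxifen and 8.64 and 8.20 in control cells on tamoxifen, a difference of 2.17 ± 0.44 or 4.49-fold (adjusted p = 0.0209). Col1a1 had 13.02 and 14.39 in flox cells and 12.00 and 11.56 in control cells, 1.93 ± 0.46 or 3.81-fold (adjusted p = 0.0332). Col1a2 had 12.71 and 14.11 in flox cells and 11.88 and 11.26 in control cells, 1.84 ± 0.48 or 3.57-fold (adjusted p = 0.0458). For all 3 genes the flox value of experiment 2 was the highest of the 4, and that of experiment 1 was the next.

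Col5a1 had 8.72 and 9.79 in flox cells with tamoxifen and 7.80 and 7.58 in control cells on tamoxifen (1.57 ± 0.32, adjusted p = 0.0217). Sparc had 12.74 and 14.23 in flox cells and 12.00 and 12.05 in control cells (1.46 ± 0.35, adjusted p = 0.0346). Fn1 had 11.74 and 12.93 in flox cells and 11.15 and 10.79 in control cells (1.36 ± 0.36, adjusted p = 0.0461). The groups did not overlap for any of these. Lox had nearly equal values on the flox arrays by its brighter probe, with 14.01 and 13.98 in flox cells and 13.28 and 12.97 in control cells, 0.87 ± 0.19 or 1.83-fold (adjusted p = 0.0278). The further probe of Lox had 11.76 and 12.39 in flox cells and 10.86 and 11.34 in control cells, with no overlap but a wider gap between the flox arrays. That of Sparc had 10.65 and 11.70 in flox cells and 10.47 and 10.18 in control cells, which do not overlap either.

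Col3a1, Cxcl12 and Thbs1 did not pass. Col3a1 had 9.99 and 11.63 in flox cells with tamoxifen and 10.44 and 9.57 in control cells on tamoxifen, so the groups overlapped. Cxcl12 had 8.04 and 9.79 in flox cells and 8.51 and 7.99 in control cells, which overlapped too. The estimate for Thbs1 was 0.00 ± 0.28, with a 95% interval of -0.68 to 0.68.

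The 7 calls depended on single arrays. Without flox cells with tamoxifen of experiment 2, the median was 0.73, with 0.93 for Col5a1 and 1.27 for Postn. Without those of experiment 1, the median was 2.11. The 7 calls were lost without either array of control cells with tamoxifen, where the medians were 1.71 and 1.12. The summed intensity of the 15 other mesenchymal stromal markers is mostly that of Acta2 and Tagln, which encode contractile proteins and made up 65.8% to 76.8% of it over all arrays and both days. At day 3 it was 20482 and 38444 in flox cells with tamoxifen, 22423 and 18077 in flox cells without it, 13249 and 10314 in control cells with tamoxifen and 10355 and 11397 in control cells without it. The other 13 stromal markers alone summed to 4744 and 9137 in flox cells with tamoxifen, 5408 and 4712 in flox cells without it, 3775 and 2911 in control cells with tamoxifen and 3534 and 3420 in control cells without it. Flox sums were thus above control sums with and without Acta2 and Tagln. Of 12 neutrophil markers 6 were higher and 1 lower in flox than in control cells at day 3 with tamoxifen, with a median of 0.72 (0.96 in experiment 1 and 0.70 in experiment 2), and 7 were higher and 1 lower without tamoxifen. Their summed linear intensity was nevertheless lower, between 46284 and 60364 in flox cells and between 67184 and 82391 in control cells over all day 3 channels. Endothelial sums at day 3 were between 5199 and 7017 and macrophage sums between 1146500 and 1205800 over all arrays. The bone-forming cell markers Runx2, Sp7 and Bglap did not pass the filter on dim probes, and neither did the endothelial marker Tek. Pdgfra, a receptor of stromal cells, was above background in day 3 RNA on 1 array of 8 and in day 0 RNA on 8. Of the other stromal markers, Pdgfrb, Lepr, Vcam1, Cdh11, Prrx1, Alpl, Acta2, Tagln and Myl9 were above background in day 3 RNA on 8 arrays. Cald1 was so on 7, Ibsp on 5, Thy1 on 4, Twist1 on 3 and Kitl on 1. The part of these cells in the result was not tested.

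**Figure D4:**
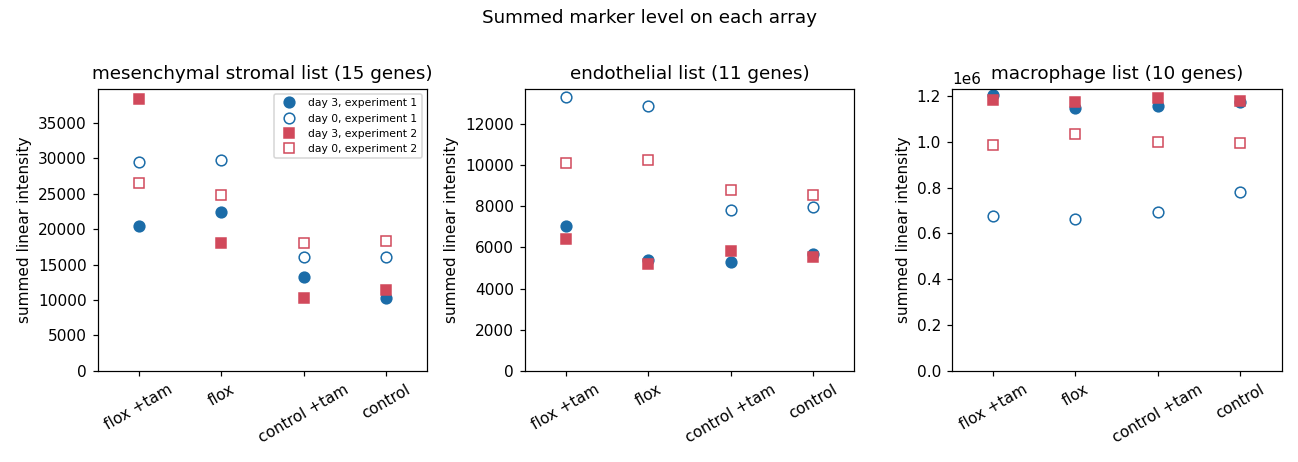
Summed linear intensity (vertical axes, from 0) of marker genes of mesenchymal stromal cells without the members, of endothelial cells and of macrophages on each array by group, with filled symbols for day 3, open symbols for day 0, circles for experiment 1 and squares for experiment 2. The highest stromal sum at day 3, 38444, was that of flox cells with tamoxifen in experiment 2.

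At day 3 without tamoxifen, 8 of the 10 genes had both flox arrays above both control arrays, against 23% of all genes, and Thbs1 had both below, against 23.1%. Thbs1 was the only member called, 4.45-fold lower in flox cells with a difference of -2.15 ± 0.28 (adjusted p = 0.00989), against 10% of all genes called in either direction and 4.48% called lower. The call was lost without either array of flox cells without tamoxifen, at -2.34 and -1.96. Postn had 9.96 and 9.48 in flox cells and 8.33 and 8.02 in control cells (1.55 ± 0.44, adjusted p = 0.0743), and Sparc 12.90 and 12.84 in flox cells and 11.71 and 12.14 in control cells (0.95 ± 0.35, adjusted p = 0.137). The further Sparc probe had 10.44 and 10.22 in flox cells and 10.22 and 10.24 in control cells, which overlap. The median was 0.83, 0.89 in experiment 1 and 0.72 in experiment 2. Leaving out either array of flox cells with tamoxifen, which are not compared here, raised the number of calls but left the median at 0.83. The spread between those arrays enters the error of this comparison too. The few calls therefore do not show that the genotypes were alike without tamoxifen. Flox minus control medians were thus 0.77 at day 0 and 0.83 at day 3 without tamoxifen; the difference between these was not tested in the channels. In the ratios of day 3 over day 0, the median flox minus control difference without tamoxifen was 0.07.

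Other genes of the matrix were read from lists, with members left out. At day 3 with tamoxifen, 6 of 14 proteoglycans and matricellular proteins were higher in flox than in control cells and 0 lower, with a list median of 0.88, against 17.5% of all genes called in either direction and 9.16% called higher. The median was 0.27 in experiment 1 and 1.33 in experiment 2, and without the array of flox cells with tamoxifen of experiment 2 the calls were 2 of 14, Ccn2 and Smoc2, against 3.03% of all genes. Among them Smoc2, a Sparc relative, differed by 1.65 ± 0.20 (adjusted p = 0.0051), Ccn2, a matricellular growth factor, by 1.82 ± 0.29 (adjusted p = 0.01), and Dcn (decorin), a proteoglycan that binds collagen, by 1.67 ± 0.35 (adjusted p = 0.024). Of 12 elastic fibre genes 4 were higher and 0 lower, Fbln2 (fibulin 2) by 2.33 ± 0.30 and Fbn1 (fibrillin 1) by 1.55 ± 0.28. Of 12 basement membrane genes 3 were higher and 0 lower, Nid1 (nidogen 1) by 1.23 ± 0.22. Their medians were 0.23 for elastic fibres (-0.03 in experiment 1 and 0.53 in experiment 2) and 0.49 for basement membranes (0.11 and 0.47). Without that array 2 elastic fibre genes (Fbln2 and Ltbp2) and 1 basement membrane gene (Nid1) were called.

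Genes that fold and process collagen were mixed, with 4 of 16 higher and 1 lower and a median of 0.03. Serpinh1, the collagen chaperone Hsp47, was higher by 1.77 ± 0.39 (adjusted p = 0.026) and Bmp1, which trims procollagen, differed by -1.74 ± 0.10 (adjusted p = 0.00069). None of 8 other fibrillar and fibril-associated collagens was called, and their median was 0.30. Without the array of flox cells with tamoxifen of experiment 2, Serpinh1 and Bmp1 were the 2 calls left among the 16. Of 15 matrix and Cxcl12 receptors 2 were higher and 0 lower, near the share of all genes: Cxcr4, the receptor of Cxcl12, by 2.33 ± 0.19 (adjusted p = 0.0016), with 2.72 and 1.94 in experiments 1 and 2, and the integrin chain Itga4 by 0.58 ± 0.13 (adjusted p = 0.026). Without the same array Cxcr4 was the 1 call. Cxcr4 and its ligand thus differed in how the experiments compared, as Cxcl12 had -0.47 and 1.80.

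TGF-beta is a growth factor known to raise collagen transcripts through Smad proteins. Of 12 genes of its pathway 3 were higher and 4 lower in flox than in control cells at day 3 with tamoxifen, with a median of 0.06, and without the array named above Tgfbr1 was higher and Smad3 and Smad7 lower. Smad3, a signal carrier, differed by -1.46 ± 0.12 (adjusted p = 0.002) and the inhibitory Smad7 by -1.80 ± 0.15 (adjusted p = 0.002), whereas the receptor Tgfbr1 differed by 1.12 ± 0.13 (adjusted p = 0.0038). Smad3 was also lower without tamoxifen, with a difference of -0.97 ± 0.12 (adjusted p = 0.0095). Of 15 mesenchymal stromal markers 6 were higher and 0 lower with tamoxifen, with a median of 0.61 (0.16 in experiment 1 and 1.33 in experiment 2). Without that array 1 was called, Cald1. With all arrays Cald1 (caldesmon) was higher by 1.42 ± 0.15 and Cdh11 (cadherin 11) by 1.65 ± 0.32, and without tamoxifen 3 markers were higher, among them Tagln by 1.15 ± 0.24.

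The addition of tamoxifen to flox cells was read over the same lists, where 9.02% of all genes were called. Dcn (1.17 ± 0.26, adjusted p = 0.042) and Smoc2 (1.09 ± 0.19, adjusted p = 0.021) rose and Vcan (versican) fell by 1.18 ± 0.18 (adjusted p = 0.015), the 3 calls among 14 proteoglycans and matricellular proteins. Col18a1, a basement membrane collagen, rose by 1.42 ± 0.17 (adjusted p = 0.0071), with 1.33 and 1.51 in experiments 1 and 2. Bmp1 fell by 1.59 ± 0.10 (adjusted p = 0.0018), with -1.52 and -1.66. For these genes the experiments differed by less than they did for Col1a1. Among the elastic fibre genes Fbn1 rose (1.20 ± 0.27, adjusted p = 0.046), among the receptors Cxcr4 (1.66 ± 0.34, adjusted p = 0.033) and among collagen processing genes Crtap (0.47 ± 0.10, adjusted p = 0.042), which takes part in collagen folding. In the TGF-beta pathway Smad3 (-0.91 ± 0.13, adjusted p = 0.012) and Smad7 (-1.68 ± 0.26, adjusted p = 0.016) fell. Of 15 stromal markers Cald1 and Cdh11 rose and Ibsp, a bone matrix protein, fell. Without the array of flox cells with tamoxifen of experiment 2, only Bmp1 and Ibsp of these genes were called, against 1.29% of all genes.

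The levels of a gene were ordered over the 6 kinds of RNA. Col1a1, Col1a2 and Fn1 shared 1 order by mean, highest in flox cells with tamoxifen at day 3, then in flox cells at day 0, flox cells without tamoxifen at day 3, control cells at day 0, control cells with tamoxifen at day 3 and control cells without it at day 3. The top place rests on the array of flox cells with tamoxifen in experiment 2. In experiment 1, flox cells with tamoxifen at day 3 were below flox cells at day 0 for each of these genes. The levels were 13.02 against 13.54 for Col1a1, 12.71 against 13.25 for Col1a2 and 11.74 against 12.28 for Fn1. Neighbours in the order by mean overlapped for Col1a1 except between day 0 control cells and control cells with tamoxifen at day 3. Sparc and Col5a1 were highest in flox cells at day 0, and Col3a1 and Cxcl12 were higher at day 0 in both genotypes than in any group at day 3 by mean. Lox was highest in flox cells with tamoxifen at day 3, with no overlap with the next, and lowest at day 0.

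Over the 16 channel values (8 arrays with 2 channels each), Col1a1 correlated with Col1a2 at 0.97 and with Fn1 at 0.97, Col3a1 with Cxcl12 at 0.95, and Thbs1 with Lox at -0.69. These values share arrays, day 0 extracts and normalization, so the figures are descriptions. The genes most like Col1a1 by this measure were Acta2 (0.96), Tagln, Cnn3, Lhfp and Ccdc80, of which Acta2, Tagln and Cnn3 encode proteins of the contractile apparatus. Those most like Fn1 were Foxc2 (0.96), Acta2, Cyp1b1, Aebp1 and Lhfp. Those most like Thbs1 were Rhbdf2 (0.98), Gmeb2, Rasal3, Dyrk1a and Usp19. Rhbdf2 had a day 3 level of 13.02 and 13.08 in flox cells with tamoxifen, 13.27 and 13.08 in flox cells without it, 13.38 and 12.96 in control cells with tamoxifen and 13.77 and 13.91 in control cells without it, so that, like Thbs1, it was highest in the last.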

How the data were processed

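The 8 dual-colour arrays were scanned by the authors and read with Agilent Feature Extraction 10.7.3.1, per the submitters' processing notes. The deposited scanner files hold the intensity of each spot and of its local background in both channels, processed intensity values, the log10 ratio of red over green, and other columns with flags of 0 or 1 for spots above background, saturated spots and outliers. The authors' deposited series matrix gives log10 ratios, day 3 relative to day 0. Feature Extraction removed trends and normalized the dyes with LOWESS for the processed values and ratios, per the file headers.

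Spot means were corrected with normexp (offset 50), normalized by loess within arrays in limma 3.58.1 (R 4.3.3; files read with data.table version 1.17.8) and turned to log2 day 3 over day 0. Outlier spots, 289 to 419 per array, had no weight. Channel levels were normalized between arrays with Aquantile, and the arrays of 1 day 0 extract were averaged. Probes well above background on both arrays of a group in 1 channel were kept (22407 probes), with the brightest probe per gene (18003 genes). Symbols were updated through RefSeq for 26412 probes. The ratios were fitted with a mean for each of the 4 groups plus the experiment as a block (3 residual and 3.46 prior degrees of freedom); the day 0 channel (4 extracts) and the day 3 channel (8 values) were fitted separately. Tests are two-sided, with Benjamini-Hochberg adjustment over all genes and a threshold of 0.05. Where an array was left out of a group, the lone array was assumed to vary like the others. P-values judge each difference against how far group values varied between the 2 experiments once the shift shared by all groups was removed. That spread was pooled over groups and moderated by limma with the prior degrees of freedom.

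Members and lists were chosen with earlier results of these data known. Stromal markers and Tek are named by whether they were detected. The other genes named are the members, Thoc5, genes among the 4 with the smallest p of each list or called in it and, for Col1a1, Fn1 and Thbs1 the 5 genes with the highest correlation. A list gene among these is not reported here. The number of arrays limits the precision. Replicate numbers mark the experiment and dye direction in the series' design; deviations of same-numbered arrays from their group means correlated at 0.31 to 0.73 over 6 pairs of groups. Promoter sequences are from RefSeq (GRCm38.p6), and probe positions are on mm9, the build of the array design.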

Additional observations from a re-analysis of the deposited data

Results flagged for a closer look

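Thbs1 was set apart by the test of a difference between genotypes. Without tamoxifen, its change from day 0 to day 3 was lower in flox than in control cells by -2.72 on the log2 scale, with -2.71 in experiment 1 and -2.73 in experiment 2. Its log2 ratios were -2.58 and -3.48 in flox cells and 0.13 and -0.75 in control cells.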

How the results depend on the processing

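Counts of called members are given here in place of the main count. Without the term for the experiment (no replicate block), 0 members were called for tamoxifen in flox cells and 0 for the change without tamoxifen, against 1 each with the pairing; no other count of members moved by over 1.5 times. With median centring, 10 were called from day 0 to day 3 in flox cells without tamoxifen and 10 in each control group, 6 for tamoxifen in flox cells, 1 for tamoxifen in control cells, 1 for the difference of tamoxifen effects and 4 for the change with tamoxifen. That fit had 888 prior degrees of freedom, so all genes were given nearly the same spread. Agilent's processed signals gave 0 for tamoxifen in flox cells, 0 for the change without tamoxifen and 2 at day 3 with tamoxifen. The deposited value table gave 0 and 0 for the first pair of these. With no filter on dim probes, 0 were called at day 3 with tamoxifen, for a reason that was not tested. That fit held more genes and had 3.04 prior degrees of freedom, against 3.59 with the filter. The mean of all probes gave 1 for the change with tamoxifen. A fit of the compared arrays alone gave 2 for tamoxifen in flox cells and 0 for the change without tamoxifen. Where no reason is named, the cause was not tested.

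Leaving out 1 array gave 3 to 10 called members from day 0 to day 3 in flox cells with tamoxifen, 2 to 10 in flox cells without it, 1 to 10 in control cells with it and 0 to 9 in control cells without it. It gave 0 to 8 for tamoxifen in flox cells, 0 to 0 for tamoxifen in control cells and for the difference of these effects, 0 to 8 for the change with tamoxifen and 0 to 1 without it, 0 to 4 at day 0, 0 to 8 at day 3 with tamoxifen and 0 to 8 without it. The 120 values of single genes were re-estimated 1990 times over the alternative settings, in fits that share arrays and genes. Of these re-estimates 1770 kept the main call, 98 lost it, 122 gained one and 0 called values changed sign. Among values that were not called in the main fit, 89 re-estimates changed sign. When shared day 0 extracts were treated as a random block, their correlation was 0.32. Leaving the array of flox cells with tamoxifen of experiment 2 out of the counts over other lists was chosen after seeing the data.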
